A study of Mus musculus with 24 samples.

Results

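The 10 transcription factor genes described here are Egr1, Egr2 and Egr3, Nr4a1, Nr4a2 and Nr4a3, Klf2, Klf4 and Klf6, and Atf3. They were taken by symbol from the count tables of 24 mouse RNA-seq libraries, and all 10 of the 10 symbols were found among the 23420 genes counted. The libraries fall into 10 groups and ask what loss of the DNA-demethylation enzymes does to RNA levels. TET enzymes oxidize 5-methylcytosine, and TDG (thymine DNA glycosylase) excises the most oxidized forms. TDG iKO stands for inducible deletion of Tdg (Tdg fl/fl with a tamoxifen-inducible Cre), and TET iTKO for inducible deletion of Tet1, Tet2 and Tet3 together (Tet1/2/3 fl/fl with the same Cre). Each knockout has its own wild-type (WT) libraries.

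All mice were C57BL/6, 8 to 16 weeks old, and received tamoxifen whether or not they carried Cre. Cre was expressed broadly, so deletion was not limited to the cells studied. Th2 cells came from naive CD4+ T cells of spleen and lymph nodes, which were activated through CD3 and CD28 with IL-4 and anti-IFN-γ and then expanded in IL-2. They make up 4 TDG iKO and 4 WT libraries with no other treatment. Bone marrow-derived macrophages (BMDMs) were grown with L929-cell medium and M-CSF. They were left untreated (0 h) or given Kdo2-lipid A (KLA, 10 ng/ml), a defined agonist of the endotoxin receptor TLR4, for 6 h. The Tdg cohort and the Tet cohort of BMDMs each hold 2 knockout and 2 WT libraries at each time.

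EGR, NR4A and KLF factors and ATF3 belong to the immediate-early class, whose transcription starts within minutes of a signal without new protein synthesis and mostly falls back soon after. EGR proteins are zinc-finger activators induced by the ERK pathway and by T cell receptor signals. NR4A proteins are orphan nuclear receptors that need no ligand, and in T cells they report receptor signalling. KLF2 maintains quiescence and homing in T cells and restrains inflammatory genes in myeloid cells, KLF4 takes part in monocyte and macrophage differentiation, and KLF6 is a broadly expressed, signal-responsive relative. ATF3 is a stress-induced bZIP factor known to restrain TLR4-driven cytokine genes. BMDMs were sampled at 0 h and 6 h of KLA, with no time between, and Th2 cells without a time course.

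The promoters of 4 members are shown, because Klf2, Klf4 and Klf6 are the members with calls in BMDMs and Atf3 is, with Klf6, the most abundant there. Each line gives the 250 bases before the RefSeq start (GRCm38.p6), 5′ to 3′ on the gene's strand. They lie at chr8:72318812-72319061 (plus strand) for Klf2, chr4:55532476-55532725 (minus strand) for Klf4, chr13:5861239-5861488 (plus strand) for Klf6 and chr1:191183334-191183583 (minus strand) for Atf3. Capitals mark matches, on either strand, to TGACG (the core of the cyclic AMP response element, CRE), the EGR site GCGNGGGCG or the MEF2 site.
Klf2: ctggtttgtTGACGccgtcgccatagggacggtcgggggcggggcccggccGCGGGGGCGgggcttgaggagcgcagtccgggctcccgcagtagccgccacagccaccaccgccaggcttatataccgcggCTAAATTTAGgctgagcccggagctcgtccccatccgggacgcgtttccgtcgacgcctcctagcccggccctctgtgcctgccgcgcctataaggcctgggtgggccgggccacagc
Klf4: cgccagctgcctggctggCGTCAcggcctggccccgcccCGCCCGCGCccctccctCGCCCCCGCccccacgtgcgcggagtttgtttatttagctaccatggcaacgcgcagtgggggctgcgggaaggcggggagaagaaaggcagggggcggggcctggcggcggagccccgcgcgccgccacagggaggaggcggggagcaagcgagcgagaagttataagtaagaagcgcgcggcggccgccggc
Klf6: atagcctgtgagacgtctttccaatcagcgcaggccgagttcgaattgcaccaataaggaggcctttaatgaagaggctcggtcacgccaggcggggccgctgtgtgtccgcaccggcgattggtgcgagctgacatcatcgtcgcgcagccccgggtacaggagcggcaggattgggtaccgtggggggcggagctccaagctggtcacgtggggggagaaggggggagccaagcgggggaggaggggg
Atf3: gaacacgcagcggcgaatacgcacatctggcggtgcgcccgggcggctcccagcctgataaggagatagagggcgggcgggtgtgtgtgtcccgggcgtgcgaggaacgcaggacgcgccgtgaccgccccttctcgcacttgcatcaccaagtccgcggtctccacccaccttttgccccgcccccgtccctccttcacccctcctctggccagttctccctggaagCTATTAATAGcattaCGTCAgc

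The Klf2 window held a TGACG match, an EGR site and a MEF2 site at -118 to -109, the Klf4 window a TGACG match and 2 EGR sites, and the Atf3 window a MEF2 site at -22 to -13 followed by a TGACG match. The Klf6 window held none of these and has no capitals. Over the 7 members with 1 window each in the RefSeq table (these 4 and Nr4a1, Nr4a2 and Nr4a3), TGACG was found in 6, against 17.8% of all 32851 windows. The EGR site was found in 4 of the 7 (Nr4a1, Nr4a2, Klf2 and Klf4), against 4.7% of all windows, and the MEF2 site in 3 (Nr4a2, Klf2 and Atf3), against 2.92%. The GC box GGGCGG, which can overlap the EGR site, was in 7 of 7, against 32.7%, and CACCC in 4, against 52%. TATAAA was in 1 (Nr4a2), against 12.4%. The NR4A element AAAGGTCA, the CArG box and the NF-kB site were in none of the 7, against 1.34%, 1.47% and 3.9% of all windows. These matches describe letters and were not tested for binding. Egr2 has several windows in that table and was left out, and Egr1 and Egr3 have none.

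Libraries held 4982950 to 26657729 counts assigned to genes (median 14853861), and 3 counts correspond to at most 6.02e-05% of a library. The shallowest library was replicate 2 of WT BMDMs at 0 h of the Tdg cohort. Gene-level counts hardly check the knockouts. Tdg was at 0 to 0.872 CPM (counts scaled to library size) in every library, WT included (0 in all 4 TDG iKO BMDM libraries), and the summed exons of Tet2 and Tet3 were no lower in TET iTKO (52.6 to 112 CPM for Tet2) than in WT (36.7 to 92). The T cell markers summed to 1890 to 2810 CPM in Th2 libraries and 7.7 to 28.1 in BMDMs, and the macrophage markers to 21500 to 29100 in BMDMs and 10.8 to 60.6 in Th2 libraries, as labelled. Th2 replicates 3 and 4 of a group differed little beyond sampling (mean chi-square per gene of 1.34 in TDG iKO and 1.51 in WT, where 1 is sampling alone, against 21.3 to 218 for other Th2 pairs), so they were summed and counted as 1 sample, which leaves n = 3. The labels do not say which libraries came from separate mice, so p-values measure only the spread between these samples. In the Tet cohort the names of the deposited tables carry a number that the 0 h and 6 h tables of 1 genotype and replicate share, and if it marks a mouse, the times are paired there. The meaning of that number is not stated. With replicate number nested in genotype as a block, no member gained or lost a KLA call in that cohort.

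Across the 24 libraries the 10 genes spanned from almost no reads to 240.4 FPKM (counts scaled for exon length and library size, which allows levels to be compared between genes). In the 16 BMDM libraries Klf6 and Atf3 were the highest, at 139 to 240 FPKM (median 175) and 101 to 179 FPKM (median 133). Klf2 followed at 7.63 to 24.7 FPKM, then Egr1 at 0.325 to 9.96 and Klf4 at 3 to 9.07, whose ranges overlapped. The NR4A receptors were low in BMDMs, with Nr4a1 at 0.245 to 2.35 FPKM and Nr4a2 at 0 to 0.926. Nr4a3 had 3 or fewer counts in 9 of 16 BMDM libraries, and Egr3 in 16 of 16. Egr2 was not detected above 2 counts in any of the 24 libraries (at most 0.0733 FPKM in Th2 libraries and 0.0192 in BMDMs). No change in it can therefore be measured at this depth in either cell type. In Th2 libraries Klf6 was at 43.1 to 64.4 FPKM and Egr1 at 19.3 to 45.3, and the order of the others differed between library sets. Atf3 was at 27.5 to 37.5 FPKM in the 4 libraries of replicates 1 and 2, above Klf2 at 7.38 to 12.3, whereas in the 4 of replicates 3 and 4 Klf2 was at 76 to 98.7 and Atf3 at 3.75 to 4.93.

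**Figure D1:**
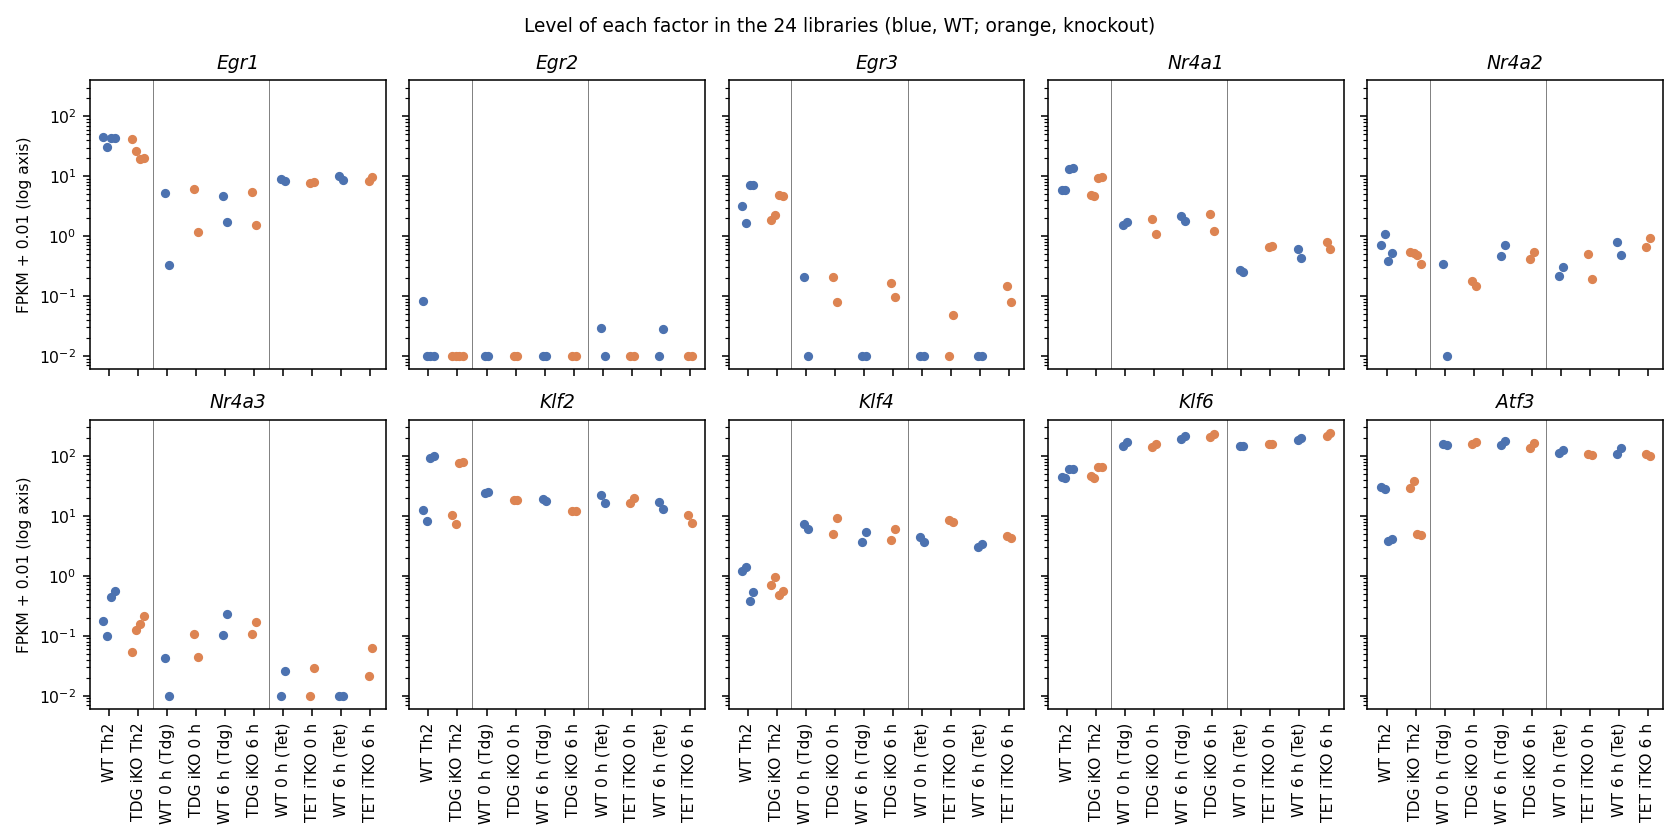
Each point is 1 library, with FPKM + 0.01 on a log axis and the 10 groups along the horizontal axis (Tdg and Tet name the cohort of the WT libraries; 0 h and 6 h, time in KLA). Klf6 and Atf3 exceed 100 FPKM in every BMDM library, and Egr2 stays at or near 0 throughout.

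The first comparison asks how unstimulated WT BMDMs differ from WT Th2 cells (3 Th2 samples against 2 BMDM libraries of the Tdg cohort). Of the 10 members 9 could be tested. Egr1, Egr3 and Nr4a1 were higher in Th2 cells, and Klf4, Klf6 and Atf3 were higher in BMDMs. Over all 13133 genes tested, 23.5% were called higher in Th2 cells and 22.6% lower, and of the members 3 of 9 in each direction. Here, as in each comparison between these bulk libraries, fewer cells that express a gene and less RNA per cell cannot be told apart. Cell type and library set cannot be told apart either.

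Egr1 stood at 45.3, 31.2, 43.6 and 42.6 FPKM in the 4 WT Th2 libraries and at 5.21 and 0.325 FPKM in the WT BMDMs at 0 h. The groups did not overlap, and the fitted log2 difference was 3.42 (SE 0.80, n = 3 and 2, DESeq2 adjusted p = 8.17e-05). Nr4a1, at 5.81 to 13.9 FPKM in WT Th2 libraries, was 3.86-fold higher than in BMDMs (adjusted p = 0.00221). Egr3, which helps set the threshold of T cell activation, was at 1.62 to 7.02 FPKM in Th2 libraries, while the 2 BMDM libraries held 3 and 0 counts. Its fitted log2 difference of 4.61 (SE 1.24, adjusted p = 0.000759) therefore rests on almost no reads on the BMDM side. The remaining NR4A members pointed the same way without passing the test, Nr4a2 with a log2 difference of 1.63 (SE 1.10, adjusted p = 0.225) and Nr4a3 with 3.30 (SE 1.67, adjusted p = 0.0945).

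On the macrophage side, Klf4 was at 0.107 times its BMDM level in Th2 cells (log2 -3.22, SE 0.58, adjusted p = 2.44e-07), Klf6 at 0.227 times (log2 -2.14, SE 0.33, adjusted p = 5.06e-10) and Atf3 at 0.0963 times (log2 -3.38, SE 0.72, adjusted p = 1.66e-05). All 3 groups of values were without overlap. These 3 genes were called in all 10 alternative analyses of this comparison, with log2 differences of -3.51 to -2.51, -2.32 to -2.02 and -3.73 to -2.88. The Egr1 difference ranged from 2.45 to 6.40 when either BMDM library was left out (2.45 without replicate 2, 6.40 without replicate 1) and was 1.77 against WT BMDMs of the Tet cohort, where that of Nr4a1 was 4.62. Against that cohort Nr4a3 was called as well (4.45, adjusted p = 0.00711), with 0 and 2 counts in its 2 libraries. The 6.40 for Egr1 sets Th2 cells against 1 BMDM library with 5 counts, whose spread was taken from the other samples. Nr4a2 was called there too, against 0 counts, so no size is given. Egr1 lost its call without WT Th2 replicates 3 and 4, at nearly the same size (3.39, adjusted p = 0.0547), and Nr4a1 lost its call when the replicate number was a block (adjusted p = 0.105), although Th2 and BMDM libraries share only a number. Klf2 showed no call (log2 0.21, SE 0.91, adjusted p = 0.871), but its sign depended on 1 Th2 sample. Without WT Th2 replicates 3 and 4 it was lower in Th2 cells, with a log2 difference of -1.70 (adjusted p = 0.000205).

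That sample belongs to a split that runs through both Th2 genotypes. Klf2, in normalised counts (scaled for library size within the fit), was 306, 209 and 2390 in WT replicates 1, 2 and 3+4, and 268, 186 and 1896 in TDG iKO. Replicates 3+4 thus stood apart in each genotype, and the ratio of their mean to that of replicates 1 and 2 was 8.84. Atf3 ran the other way. Its normalised counts were 804.5, 746 and 106 in WT and 803, 1016 and 129 in TDG iKO, a ratio of 0.14. Nr4a1 (ratio 2.15), Egr3 (2.62) and Nr4a3 (3.18) were higher in replicates 3+4, whereas Klf4 (0.449) and Nr4a2 (0.603) were lower, and Klf6 (1.38) and Egr1 (0.852) moved least. No test was made of this split, which the labels do not name beyond a different range of library numbers.

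**Figure D2:**
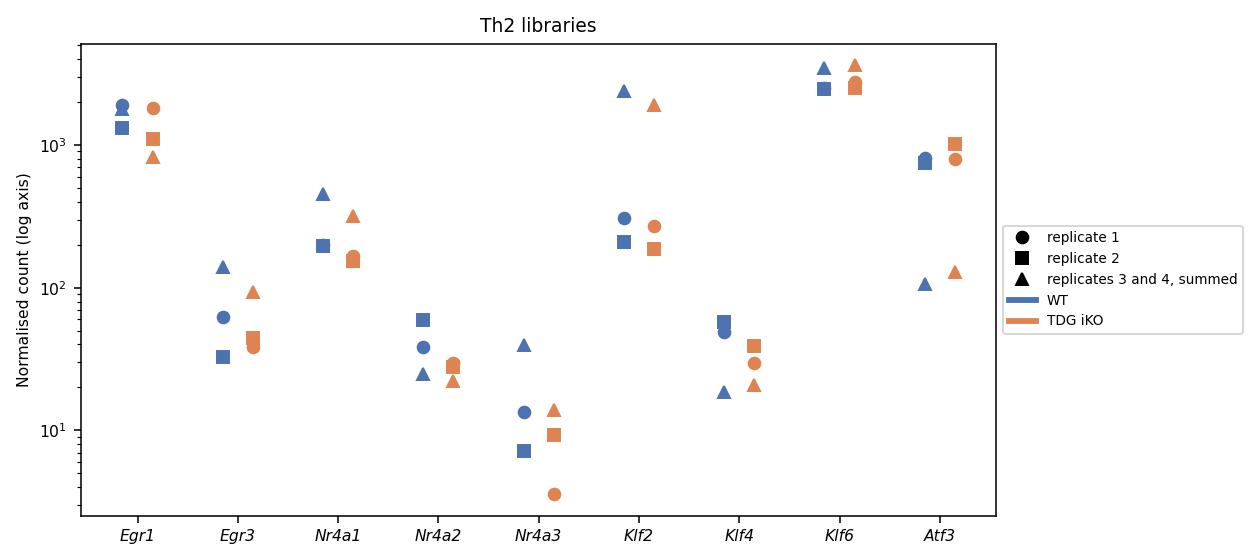
Normalised counts of 9 members (Egr2 is left out) in Th2 samples on a log axis, by genotype (colour) and replicate (marker shape). For Klf2 the triangles (replicates 3 and 4, summed) lie at 1896 and 2390, far above the other 4 samples, and for Atf3 at 106 and 129, far below them.

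Against that spread, TDG loss in Th2 cells gave no call for any member. DESeq2 called 0 of 15826 genes (0%; 77 at an unadjusted p under 0.05, none of them a member), and edgeR called 0 of 11071 (55 at an unadjusted p under 0.05). Libraries of the same number deviated together across genes, so the replicate number was also fitted as a block. The block raised the calls to 15 of 10350 genes, again with no member among them. Klf2 received no p-value in the main fit, because its values were flagged as extreme by the Cook's distance filter. Within each number it was lower in TDG iKO, at 0.876, 0.89 and 0.793 times WT, but the blocked log2 difference of -0.25 was not called (adjusted p = 0.999). Egr1 was at 0.956, 0.832 and 0.458 times WT in numbers 1, 2 and 3+4 (log2 -0.43, SE 0.35, adjusted p = 1; -0.485 with the block, adjusted p = 0.999). Nr4a1 was at 0.835, 0.786 and 0.704 times WT (log2 -0.41, SE 0.47, adjusted p = 1; -0.38 with the block, unadjusted p = 0.0606, adjusted p = 0.995). Nr4a2 was at 0.77, 0.469 and 0.898 times WT (-0.59, SE 0.49, adjusted p = 1; -0.52 with the block, adjusted p = 0.999). Klf2, Egr1, Nr4a1 and Nr4a2 were thus lower in TDG iKO at each number, without a call. The share of all genes with the same direction at each number was not counted, so this describes the values only. With replicates 3 and 4 kept as separate samples in the blocked fit, the smallest adjusted p of a member was 0.129, for Nr4a1.

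TDG loss in BMDMs likewise gave no call among the 9 members tested, at 0 h (0% of 15026 genes) or after 6 h of KLA (0%). At an unadjusted p under 0.05 there were 265 genes at 0 h and 34 at 6 h, and edgeR also called 0 genes at each time (125 and 27 at that unadjusted level). Klf2 came closest. Its normalised counts at 0 h were 447 and 520 in WT and 328 and 356 in TDG iKO, and at 6 h they were 383 and 394 in WT and 233 and 274 in TDG iKO. The groups did not overlap at either time. Here as elsewhere, lack of overlap describes the values only, and its share over all genes was not counted. The log2 differences were -0.49 (SE 0.28, unadjusted p = 0.08, adjusted p = 1) and -0.615 (SE 0.28, unadjusted p = 0.0304, adjusted p = 1), and the difference between them, the interaction of KLA and genotype, was -0.12 (SE 0.40, adjusted p = 1; 0% of 15026 genes called).

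The standard errors of Egr1, Klf4, Klf6 and Atf3 were larger in the TDG contrasts (0.98 to 0.99 for Egr1) than in the TET contrasts (0.17 for Egr1). Klf4 was at 146 and 289 normalised counts in TDG iKO at 0 h against 219 and 209 in WT, so its 2 knockout libraries bracketed the WT pair. Egr1 varied mostly by replicate number. It was at 160, 182.5, 153 and 175 normalised counts in replicate 1 of WT 0 h, TDG iKO 0 h, WT 6 h and TDG iKO 6 h, and at 11.5, 37.6, 64.1 and 57.2 in replicate 2 of the same groups. Summed markers of neutrophils and myeloid progenitors were also higher in those replicates 1 than in replicates 2 (29 to 46.2 CPM). In replicates 1 they stood at 196 and 234 CPM in WT and at 604 and 544 in TDG iKO (0 h and 6 h). Macrophage markers were higher in replicates 1 as well (25700 to 29100 against 21500 to 23500 CPM). Dendritic cell markers were higher in replicates 1 too (12.6 to 16.3 against 5.45 to 10.4 CPM). Fibroblast markers were lower there (1.64 to 5.72 against 6.92 to 20 CPM). The part of such cells in the Egr1 values was not tested. Klf6 and Atf3, the 2 abundant members, had 95% intervals of -0.79 to 0.41 and -0.61 to 0.58 at 0 h.

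Loss of the 3 TET enzymes was the genotype contrast with calls among the members, 1 at each time. At 0 h, Klf4 rose. Its normalised counts were 415 and 370 in TET iTKO and 219.9 and 184 in WT, without overlap, a 1.95-fold difference (log2 0.96, SE 0.22, n = 2 and 2, adjusted p = 0.000337; edgeR adjusted p = 0.00623). This is 1 of the 7 members that could be tested, where 4.42% of 12114 genes were called higher and 3.15% lower. Nr4a1 was at 25.5 and 26.1 normalised counts in TET iTKO and 10.6 and 9.93 in WT. The groups did not overlap, yet with so few reads the log2 difference of 1.33 (SE 0.67) was not called (adjusted p = 0.281). Egr1 and Atf3 lay slightly lower in TET iTKO, also without overlap and without a call (log2 -0.19, adjusted p = 0.717, and -0.24, adjusted p = 0.39). Klf2, Klf6 and Nr4a2 overlapped between genotypes at 0 h.

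After 6 h of KLA the called member was Klf2, which fell with TET loss. TET iTKO libraries held 315.5 and 238 normalised counts and WT libraries 551 and 428, a ratio of 0.564 (log2 -0.83, SE 0.21, adjusted p = 0.00356; edgeR adjusted p = 0.0402). At this time 3.16% of 11823 genes were called higher and 3.28% lower. Klf4 lay above WT at 6 h without a call, at 237 and 221 normalised counts against 159 and 190 (log2 0.395, SE 0.22, adjusted p = 0.393). Atf3, at 3566 and 3383 against 3671 and 4807, was lower without a call (log2 -0.29, SE 0.13, adjusted p = 0.244). Egr1 and Klf6 were bounded to small changes at 6 h, with 95% intervals of -0.43 to 0.24 and -0.05 to 0.39.

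Both TET calls depended on single libraries. Without WT replicate 2 at 0 h the Klf4 difference was 0.83 with an adjusted p of 0.0864. Without WT replicate 1 or TET iTKO replicate 2 at 6 h, the Klf2 difference was -0.63 (adjusted p = 0.222) or -0.64 (adjusted p = 0.258), and without that WT library Atf3 was called instead (-0.47, adjusted p = 0.0203). Markers of other cells also moved with TET genotype. The 8 neutrophil and progenitor markers summed to 78.7 to 179 CPM in TET iTKO and 34.9 to 63.2 in WT at 0 h, and to 81 to 135 against 38.9 to 42.4 at 6 h, with none of the 8 at 0 in any of these groups. The 4 fibroblast markers summed to 33.2 to 38.1 against 10.9 to 13.8 at 0 h and 57.2 to 63 against 18 to 20.6 at 6 h (Col3a1 was at 0 in TET iTKO at 6 h), and the 4 B cell markers to 5.51 to 21.8 against 1.49 to 1.82 at 0 h and 3.85 to 18.9 against 1.73 to 2.37 at 6 h. The 8 macrophage markers summed to 23300 to 23400 against 26500 to 27800 at 0 h and to 21900 to 22600 against 25600 to 27400 at 6 h. Single markers moved unevenly. At 0 h, 2 of 8 neutrophil and progenitor, 1 of 4 fibroblast and 3 of 4 B cell markers were called higher. At 6 h these were 3 of 8, 2 of 3 and 1 of 4, and none was called lower. The fibroblast marker Dcn was called at both times (log2 1.52 and 1.535). Of the macrophage markers, 1 was higher (Itgam) and 4 lower at 0 h, and 5 were lower at 6 h. The part of these cells in the Klf4 and Klf2 differences was not tested.

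**Figure D3:**
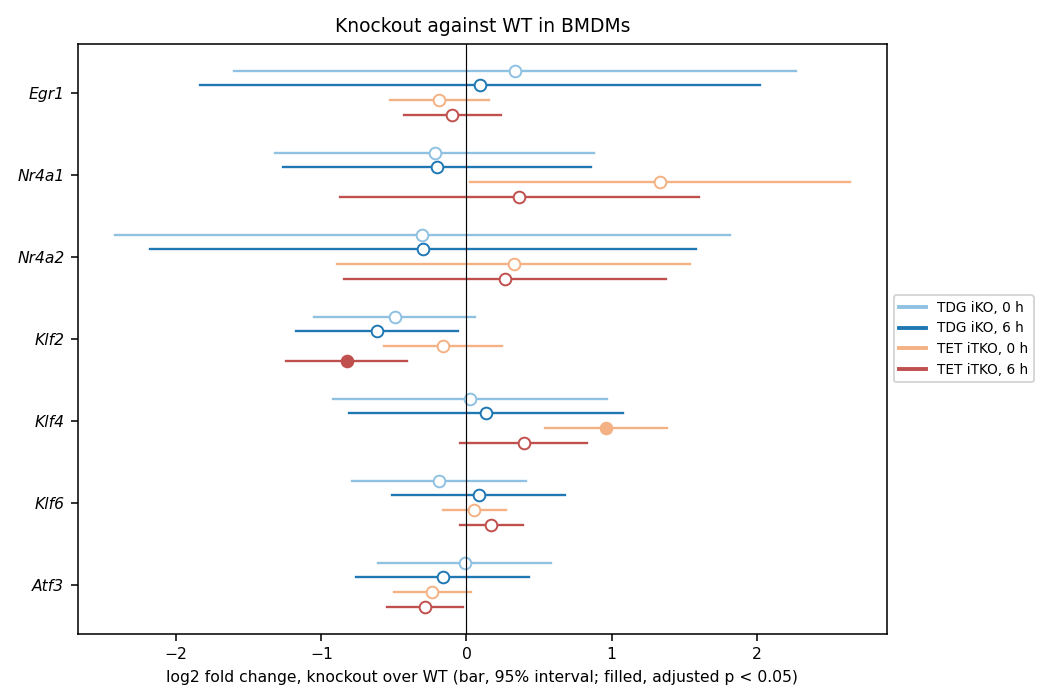
Log2 fold changes, knockout over WT, for the 7 members with enough reads in BMDMs, with 95% intervals as bars and filled points for an adjusted p under 0.05. The filled points are Klf4 in TET iTKO at 0 h and Klf2 in TET iTKO at 6 h, and for Klf2 all 4 estimates lie below 0, at -0.49 and -0.615 for TDG iKO and -0.16 and -0.83 for TET iTKO.

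The effect of TET loss was then set against that of TDG loss in 1 fit over the 16 BMDM libraries. No member differed between the genotypes' effects at 0 h (7 tested, where 0.34% of 11172 genes were called) or at 6 h (8 tested, where 0.0888% of 12393 were called). For Klf4 at 0 h the TET effect exceeded the TDG effect by 0.94 (SE 0.52, adjusted p = 0.828), and for Nr4a1 by 1.56 (SE 0.68, unadjusted p = 0.0221, adjusted p = 0.7). For Klf2 at 6 h the effects differed by -0.20, with a 95% interval of -0.85 to 0.45 (adjusted p = 1). The Klf4 and Klf2 calls in TET iTKO are therefore not shown to be particular to TET loss.

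The response to KLA was measured in 4 arms, WT and knockout in each cohort. Klf6 was above its 0 h level in each arm and was called in both arms of the Tet cohort. Its normalised counts went from 6132 and 8153 to 8768 and 11040 in WT of the Tdg cohort, and from 5573 and 6957 to 9201 and 11810 in TDG iKO. In the Tet cohort they went from 9895 and 10280 to 13180 and 15360 in WT and from 10700 and 10250 to 14970 and 17140 in TET iTKO. Klf6 rose 1.41-fold in WT of the Tet cohort (log2 0.50, SE 0.11, adjusted p = 6.27e-05; edgeR adjusted p = 0.00575) and 1.53-fold in TET iTKO (log2 0.62, SE 0.11, adjusted p = 3.77e-07; edgeR adjusted p = 0.00182). In the Tdg cohort the estimates were 0.47 (SE 0.305, adjusted p = 0.396) in WT and 0.75 (SE 0.305, adjusted p = 0.147) in TDG iKO, without a call. With the replicate number as a block, Klf6 was called in TDG iKO as well (0.74, adjusted p = 0.00402).

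Klf2 and Klf4 pointed down in all 4 arms and were called lower in TET iTKO alone. There Klf2 went from 474 and 560 to 315.5 and 238 normalised counts, a ratio of 0.533 (log2 -0.91, SE 0.21, adjusted p = 0.000181; edgeR adjusted p = 0.00609). Klf4 went from 415 and 370 to 237 and 221, a ratio of 0.584 (log2 -0.78, SE 0.215, adjusted p = 0.00215; edgeR adjusted p = 0.00368). In the WT libraries of that cohort the times overlapped for both genes, Klf2 with 665 and 496 before and 551 and 428 after KLA, and Klf4 with 219.9 and 184 before and 159 and 190 after. The difference between the TET iTKO and WT responses was not called. It was -0.66 for Klf2 (SE 0.30, unadjusted p = 0.0261, adjusted p = 0.912) and -0.57 for Klf4 (SE 0.31, adjusted p = 1), in a test that called 0.429% of 12114 genes. A call in one genotype and not in the other thus does not show here that the responses differed. The Klf4 call was lost, at nearly the same size, without TET iTKO replicate 1 at 0 h (-0.695, adjusted p = 0.0783) or replicate 2 at 6 h (-0.73, adjusted p = 0.0597).

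**Figure D4:**
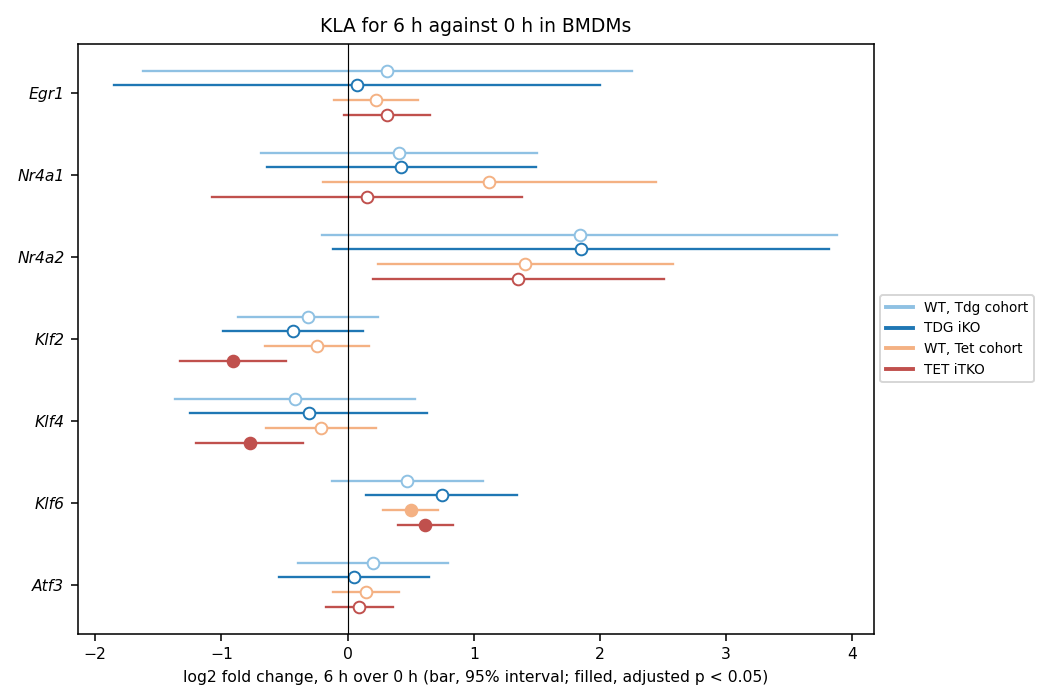
Log2 fold changes, 6 h of KLA over 0 h, for 7 members in the 4 arms, with 95% intervals as bars and filled points for an adjusted p under 0.05. Klf6 estimates lie at 0.47 to 0.75 in the 4 arms, those of Nr4a2 at 1.35 to 1.85 with wide intervals, and those of Klf2 at -0.91 to -0.24.

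Nr4a2, an NR4A receptor inducible in activated macrophages, had the largest estimates of the 7 members tested in all 4 arms, and few reads. Its normalised counts in the Tet cohort went from 13.7 and 19.9 to 54.7 and 35.3 in WT and from 31.5 and 11.7 to 44.6 and 63.5 in TET iTKO, and the times did not overlap in 4 of 4 arms. The fold changes were 3.58 and 3.6 in WT and TDG iKO of the Tdg cohort and 2.66 and 2.56 in WT and TET iTKO of the Tet cohort. None was called, with adjusted p-values of 0.317, 0.416, 0.0717 and 0.079. Single libraries moved these values both ways. In TET iTKO the log2 change was 2.21 without replicate 1 at 0 h (adjusted p = 0.0234) and 0.78 without replicate 2 at 0 h (adjusted p = 0.576). In WT of the Tdg cohort it was 1.04 without replicate 2 at 0 h (adjusted p = 0.647). Without replicate 1 at 0 h it was called, but against 1 library with 0 counts, so no size is given. Nr4a3, tested in the Tdg cohort alone, had 2 and 0 counts at 0 h and 5 and 20 at 6 h in WT (log2 3.18, SE 1.65, adjusted p = 0.264), and 6 and 4 against 5 and 15 in TDG iKO (1.26, adjusted p = 0.91). Nr4a1 had log2 changes of 0.155 to 1.12 over the 4 arms, the highest in WT of the Tet cohort (adjusted p = 0.254), where it went from 10.6 and 9.93 to 25.8 and 18.8 normalised counts. Egr1, the archetype of the class, had estimates of 0.08 to 0.32 on the log2 scale, and Atf3 of 0.05 to 0.20, none of them called. In the Tdg cohort the Egr1 intervals were wide, from -1.62 to 2.25 in WT and from -1.85 to 2.00 in TDG iKO, and leaving out 1 library moved the WT estimate between -0.565 (without replicate 2 at 0 h) and 3.23 (without replicate 1 at 0 h). In the Tet cohort the Egr1 estimates of 0.225 and 0.32 had 95% intervals of -0.11 to 0.56 and -0.02 to 0.65. No time between 0 h and 6 h was sampled.

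Over the members tested, KLA gave 0 calls in each arm of the Tdg cohort (8 tested in each; 5.35% of 11530 genes higher and 3.37% lower in WT, 4.2% of 11821 higher and 2.74% lower in TDG iKO). It gave 1 higher in WT of the Tet cohort (7 tested; 12.8% of 12114 genes higher and 10.8% lower) and 1 higher and 2 lower in TET iTKO (7 tested; 13% of 11240 higher and 11.7% lower). Genes listed as a check of stimulation, which include cytokine genes, Nos2 and Nfkbia, did respond, with 6 of 7 higher in each arm of the Tdg cohort and 7 of 7 in each arm of the Tet cohort. The cytokine gene Il1b, for example, had log2 changes of 4.50 and 4.52 in WT and TDG iKO and of 6.53 and 4.34 in WT and TET iTKO. Il1b was already higher in TET iTKO than in WT at 0 h (log2 3.82, adjusted p = 1.91e-10), and also at 6 h (1.625, adjusted p = 0.0215). The check genes summed to unequal levels at 0 h. In the Tdg cohort they were at 781 and 2980 CPM in WT replicates 1 and 2 and at 850 and 1920 in TDG iKO. In the Tet cohort they were at 944 to 1200 CPM in WT and 1600 to 1700 in TET iTKO. The part of these levels in the KLA estimates was not tested.

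**Figure D5:**
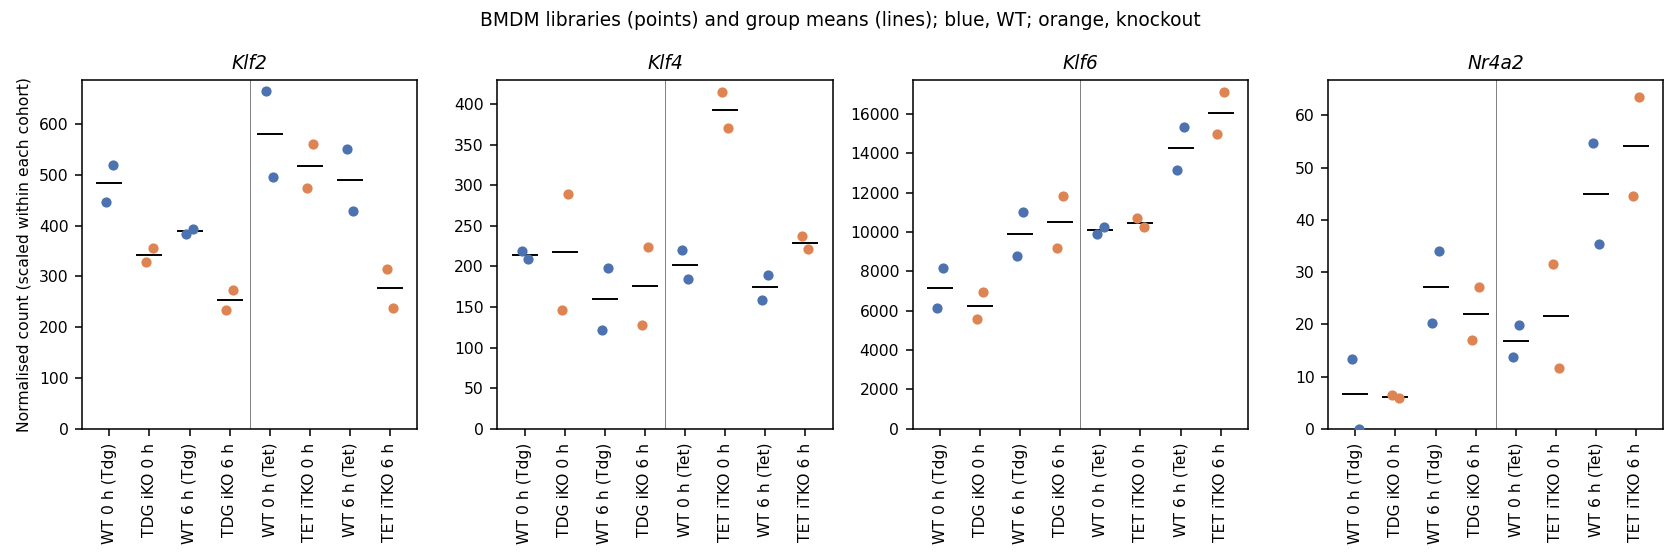
Normalised counts of Klf2, Klf4, Klf6 and Nr4a2 in the BMDM libraries (points) with group means (lines), on linear axes from 0, scaled separately in the Tdg cohort (left of the grey line) and the Tet cohort. Within the Tet cohort Klf4 is highest in TET iTKO at 0 h (415 and 370) and Klf2 lowest in TET iTKO at 6 h (315.5 and 238). Klf6 is higher at 6 h than at 0 h in each pair of groups.

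Partners and relatives of these factors give the setting. The share of all genes called with KLA in each arm is given above. Nab1 and Nab2 encode corepressors that bind EGR proteins. With KLA, 2 of 2 tested EGR partners were higher in WT of the Tdg cohort (Nab2 2.07, SE 0.51, adjusted p = 0.00131; Nab1 0.87, adjusted p = 0.00614; all log2), 1 of 2 in TDG iKO (Nab1 0.715, adjusted p = 0.0442), and 2 of 2 in WT (Nab2 1.00, adjusted p = 5.06e-06) and TET iTKO (Nab2 0.67, adjusted p = 0.00466) of the Tet cohort. Among NR4A partners, Rxra, which encodes the RXR dimer partner, was lower with KLA in WT of the Tet cohort (log2 -0.81, adjusted p = 7.23e-05) and in TET iTKO (-0.93, adjusted p = 5.82e-06). It was also lower with TET loss at 0 h (-0.86, adjusted p = 9.85e-05) and at 6 h (-0.98, adjusted p = 1.1e-05).

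Of 12 tested KLF and SP relatives, KLA changed 5 in WT of the Tet cohort (2 higher, 3 lower) and 5 in TET iTKO (3 higher, 2 lower), against 1 higher in each arm of the Tdg cohort. Over all genes, 12.8% were higher and 10.8% lower in WT of the Tet cohort, and 13% and 11.7% in TET iTKO. In the Tdg cohort 5.35% of all genes were higher in WT and 4.2% in TDG iKO. With so few relatives, these counts describe the list only. Klf7 was higher in WT of the Tet cohort (log2 1.23, adjusted p = 4.09e-09), in TET iTKO (1.04, adjusted p = 1.7e-06) and in TDG iKO (1.19, adjusted p = 0.024). Klf3, a repressor of the family, was higher in WT of the Tdg cohort (1.24, adjusted p = 0.0411) and in WT (0.54, adjusted p = 0.00185) and TET iTKO (0.76, adjusted p = 3.47e-06) of the Tet cohort. Klf10, a TGF-β-inducible member, was lower in WT (-0.44, adjusted p = 0.0253) and TET iTKO (-0.59, adjusted p = 0.00131) of the Tet cohort. With TET loss, none of these relatives was called at 0 h or 6 h.

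Among ATF and CREB relatives, 2 of 14 were higher with TET loss at 0 h (Batf, log2 0.67, adjusted p = 0.0232; Atf4, 0.58, adjusted p = 0.000355) and 1 of 14 at 6 h (Atf4, 0.48, adjusted p = 0.00648). Over all genes, 4.42% were called higher with TET loss at 0 h and 3.16% at 6 h. Atf4 encodes the main effector of the integrated stress response, and it is known to induce Atf3. In that pathway 4 of 8 genes were higher with TET loss at 0 h and 4 of 8 at 6 h, with none lower and median log2 changes of 0.57 and 0.46, against 0.008 and -0.001 over all genes tested. Asns, for asparagine synthetase, was higher at 0 h (1.25, SE 0.19, adjusted p = 3.56e-09) and at 6 h (1.30, adjusted p = 1e-09), as was the pseudokinase gene Trib3 (1.26, adjusted p = 0.000145, and 1.84, adjusted p = 7e-08). Atf3, as given above, had estimates below 0 at both times. With KLA, Batf was higher in all 4 arms, with log2 changes of 1.83, 2.28, 1.92 and 1.65 in WT and TDG iKO of the Tdg cohort and WT and TET iTKO of the Tet cohort (adjusted p = 0.0124, 0.000677, 9.17e-20 and 1.72e-15).

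The other 41 immediate-early genes listed moved in both directions with KLA at 6 h. In the Tet cohort 10 of 38 tested were higher and 10 lower in WT, and 13 of 35 higher and 7 lower in TET iTKO. In the Tdg cohort 6 of 38 were higher and 4 lower in WT, and 5 of 38 higher and 4 lower in TDG iKO. The shares of all genes higher and lower were 12.8% and 10.8% in WT of the Tet cohort and 13% and 11.7% in TET iTKO. They were 5.35% and 3.37% in WT of the Tdg cohort and 4.2% and 2.74% in TDG iKO. Maff and Nfkbiz, which encode a small MAF protein and an inducible IκB-family regulator, rose in each of the 4 arms (log2 2.32 to 3.61 for Maff and 2.10 to 2.44 for Nfkbiz). Rhob and Zfp36l1, for a small GTPase and an RNA-decay factor, fell in each of the 4 arms (log2 -1.90 to -1.67 for Rhob and -2.51 to -1.81 for Zfp36l1). With TET loss, 4 of 38 were higher and 1 lower at 0 h, and 4 of 37 higher and 2 lower at 6 h. Over all genes these shares were 4.42% higher and 3.15% lower at 0 h, and 3.16% and 3.28% at 6 h. Dusp2, a MAP kinase phosphatase gene, was higher at both times (1.465, adjusted p = 0.038, and 1.95, adjusted p = 0.00142), and Rhob was lower at both (-0.97, adjusted p = 3.28e-09, and -0.74, adjusted p = 8.65e-05). Gadd45a differed in its KLA response by TET genotype (1.07, SE 0.22, adjusted p = 0.00117), the only one of the 38 tested.

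Of 21 upstream kinases and factors, KLA changed 2 in each arm of the Tdg cohort, 1 in each direction, near the share over all genes given above. In the Tet cohort it changed 9 in WT (3 higher, 6 lower) and 7 in TET iTKO (2 higher, 5 lower), against 12.8% higher and 10.8% lower, and 13% and 11.7%, over all genes. Mef2c, which encodes a MEF2-family factor, was lower in all 4 arms (log2 -1.72, -1.75, -1.58 and -1.76, with adjusted p = 0.0122, 0.0115, 7.13e-12 and 1.01e-14). Map2k1, for the ERK kinase MEK1, was higher in all 4 (0.93, 0.80, 0.72 and 0.47, with adjusted p = 0.0123, 0.0496, 2.32e-09 and 0.000256). None of the 21 was called with TET loss.

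Genes that KLF2 is known to activate in T cells were mostly higher in TET iTKO BMDMs, where Klf2 was lower. Of the 5 listed, 3 were higher and 1 lower at 6 h, including the homing integrin gene Itgb7 (log2 1.41, adjusted p = 2.98e-12), while S1pr1, for the egress receptor, was lower (-0.61, adjusted p = 0.00252). At 0 h, where Klf2 was not called, 3 of 5 were higher and none lower. Over all genes 4.42% were higher and 3.15% lower at 0 h, and 3.16% and 3.28% at 6 h. S1pr1 was lower with KLA in all 4 arms (-1.25, -1.38, -1.10 and -1.52, with adjusted p = 0.0078, 0.00258, 5.52e-12 and 1.05e-21).

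As a description of likeness across the 16 BMDM libraries, the genes with the highest Pearson correlation to each of the 5 members averaging 50 or more normalised counts were listed. For Klf6 they were Nfkbib (r = 0.976), Ube2z (0.975) and Mtdh (0.971), for Egr1 Pspc1 (0.923), Trappc13 (0.922) and Ibtk (0.918), and for Atf3 Vps51 (0.926), Coro2a (0.922) and Apbb2 (0.92). For Klf2 they were Vim (0.852), Aldh1l1 (0.843) and Flot1 (0.838), and for Klf4 Ankrd54 (0.814) and Nuak2 (0.813). The 16 points share cohort and time in KLA, so these values are not independent. Among the 5 members themselves, r ran from -0.722 (Egr1 and Atf3) to 0.371 (Klf2 and Atf3), so the group did not vary as one.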

How the data were processed

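RNA-seq was measured in 24 mouse libraries. The authors aligned reads to mm9 with HISAT2, counted them per gene with HTSeq-count and tested them with DESeq2 1.30.0, per the submitters' processing notes. The deposited values are raw counts per gene symbol, and the 5 HTSeq tallies of unassigned reads were left out (32.8% to 51.6% of each table's total). The HTSeq strand setting is not given in the sources used here, so reads from Egr1 and an annotated gene on its other strand cannot be told apart.

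From these counts, DESeq2 1.42.0 (R 4.3.3) was fitted with 1 coefficient per group, over all genes, with Benjamini-Hochberg adjusted p-values and a threshold of 0.05. BMDM contrasts used all 8 libraries of a cohort (16 for differences between cohorts). Genes tested are those with an adjusted p. Alternatives were edgeR 4.0.16 quasi-likelihood tests, TMM factors, a filter of 10 counts in 2 libraries, replicate blocks and leaving out each library. The DESeq2 and edgeR fits were tried on simulated counts with known changes. This covered TDG loss in Th2 cells and TDG and TET loss in BMDMs at 0 h. The outcome is not given here, so it lends no weight to the lack of a call. FPKM divided counts by exon length (GENCODE vM1, mm9) and by library totals without Rn45s. The members, gene lists and naming rule (all members; up to 3 called genes per list and direction averaging 50 or more normalised counts; the 3 most correlated genes) were chosen with earlier results of these data known. The main Th2 fit was unpaired. Th2 libraries were paired by number only in the ratios to WT and in the blocked alternatives. The deviations of libraries sharing a number from their group means correlated at 0.51, 0.733 and 0.919, which the main fit does not take into account. Floors cover counting error only. Some items that the naming rule picks are not reported here.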

Additional observations from a re-analysis of the deposited data

How the results depend on the processing

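The number of members called was within 1.5 times the reported one in each comparison and alternative except the following. With KLA in TDG iKO it was 1 in place of 0 with a replicate block and 1 with the nested replicate block, the added call being Klf6 (log2 0.74 in both, adjusted p = 0.00402 and 0.0102). Leaving out 1 library at a time, the number ranged from 0 to 1 for TET iTKO against WT at 0 h and at 6 h, from 0 to 2 with KLA in WT of the Tdg cohort, and from 0 to 1 for the difference of TET and TDG effects at 0 h. The extra calls in the last 2 came without replicate 1 of WT BMDMs at 0 h of the Tdg cohort, which leaves the shallowest library alone in its group, with 5 Egr1 counts and 0 Nr4a2 counts and its spread taken from the other groups. They were Egr1 (3.23, adjusted p = 0.0444) and Nr4a2 (against 0 counts) with KLA, and Egr1 (-3.42, adjusted p = 0.0238) for the difference. Egr1 changed sign without other libraries of that cohort, to -0.44 and -0.565 with KLA and to 1.03 and 0.36 for the difference. Klf2 in WT Th2 cells against BMDMs changed sign with the replicate block (-1.73) and without Th2 replicates 3 and 4 (-1.70). Numbers of all genes called also moved by over 1.5 times. For TDG loss they were 0 in Th2 cells (15 with the block, 2 with replicates 3 and 4 separate, 87 with both) and 0 in BMDMs at 0 h (4 with the block). With KLA they were 1006 in WT of the Tdg cohort (413 in edgeR, 1805 and 1813 with the blocks) and 821 in TDG iKO (346, 1373 and 1315). For the KLA by TET interaction they were 52 (1, 90 and 224), and for TET against TDG effects 38 at 0 h (0 in edgeR, 182 with the block) and 11 at 6 h (1 and 101). The causes were not tested. The block changed no other call among members than Klf6 here and Nr4a1 and Klf2 in the Th2 comparison with BMDMs. Libraries of 1 number correlated in their deviations between 0 h and 6 h (r across genes of 0.361 to 0.823) and between genotypes in the Tdg cohort (0.313 and 0.822), but not between genotypes in the Tet cohort (0.018 and 0.065). In BMDMs the labels give a shared number only, and what the further number in the names of the Tet tables marks is not stated. Depth limits Egr2, Egr3 and Nr4a3, with few or no reads in BMDMs, and groups of 2 limit all BMDM tests.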
